A study of Mus musculus with 24 samples.

Results

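The microRNAs described here mark the blood vessels and red cells within the soleus, a slow-twitch calf muscle, and were read across mice with or without a muscle PPAR transgene. They were chosen by name: mmu-miR-126-3p and mmu-miR-126-5p, which are enriched in endothelial cells, and mmu-miR-451, which is enriched in red cells and their precursors. Another name of that choice, the erythroid miR-144, was not analysed here. The 3 assays were among 584 microRNA assays on 2 real-time PCR cards, and all 3 were on card A, with 1 well per animal. Each of the 3 was detected in all 12 animals, as were the muscle microRNAs miR-1, miR-133a, miR-133b and miR-206 that define the labelled tissue.

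The animals were male mice aged 12 weeks in 4 groups of 3. MCK-PPARa and MCK-PPARb mice overexpress PPARα or PPARβ in muscle from a transgene named for the muscle creatine kinase promoter, so the receptor is raised in muscle fibres and not by design in vessels or blood. NTGa and NTGb are the non-transgenic littermates of the respective lines. Strain, number of founder lines and any removal of blood from the muscle were not stated in the labels, and no assay on the cards measures the transgenes. In whole muscle, fewer cells of a type and less RNA per cell cannot be told apart.

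As background, endothelial cells line every capillary, and the soleus is densely supplied with capillaries. A single hairpin in the gene Egfl7 gives both arms of miR-126, and the 3p arm favours growth factor signalling in endothelium by restraining inhibitors such as Spred1. miR-451 is made during red cell maturation from a transcript shared with miR-144. Its hairpin is too short for Dicer and is cut by Ago2 instead, so the mature strand runs into the loop. Mature red cells keep miR-451, which makes it a common sign of blood in a tissue RNA sample.

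The sequences are shown because 2 of the measured assays read opposite arms of 1 hairpin, while mmu-miR-451 has a single product. They are written 5′ to 3′ as in the RefSeq tables for GRCm38.p6. In the mature sequences the capitals mark the seed, bases 2 to 8, with which a microRNA pairs to its targets. In the hairpins they mark the listed mature strand.
mmu-miR-126a-3p: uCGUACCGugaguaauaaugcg
mmu-miR-451a: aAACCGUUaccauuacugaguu
Mir126a hairpin: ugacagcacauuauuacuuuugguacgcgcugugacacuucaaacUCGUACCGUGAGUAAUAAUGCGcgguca
Mir451a hairpin: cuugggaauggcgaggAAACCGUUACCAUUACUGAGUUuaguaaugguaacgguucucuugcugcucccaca

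Mir126a lies at chr2:26591357-26591429 on the plus strand, within the span of Egfl7. Mir451a lies at chr11:78073170-78073241 on the plus strand, with 99 bases between it and Mir144. The seeds of miR-126a-3p and miR-451a differ, and 0 others of the 1679 mature RefSeq names carry either seed. Of the 3 assays, 2 matched a mature entry by name, with the suffix a that newer tables add, and miR-126-5p is given by name only.

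mmu-miR-126-3p was among the brightest signals of the muscle. The unit is the Ct, the PCR cycle in which the fluorescence of a well passes a set level, and it is lower where there is more template. Its Ct lay between 19.3 and 19.9 in the 12 animals, and it ranked between 2 and 4 by Ct among the microRNA assays of card A in every animal. mmu-miR-126-5p had a Ct of 19.9 to 22.2 and ranked between 5 and 10. mmu-miR-451 was much dimmer, at 28.1 to 29.9, with ranks from 66 to 107. Assays can differ in efficiency, so these ranks order the signals and are no measure of copies.

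For comparison between animals, each value was set against the mean Ct of the 149 microRNAs of card A detected in all 12 animals. The difference, that mean minus the Ct of the assay, is called here the relative abundance, on the log2 scale. A higher value means more of the microRNA, and 1 unit stands for a 2-fold difference if template doubles in each cycle. NTGb replicate 2 differed from the rest of its group in this reference, with a mean Ct of 27.6 where NTGb replicates 1 and 3 each had 28.4. It was the lowest of all animals, but close to NTGa replicate 2 at 27.7, and the others reached up to 28.4. It had 296 microRNAs detected where the others had 248 to 283. Comparisons with NTGb are therefore also given without it.

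Across the groups, no member stood out from the spread between animals. The highest group means were those of MCK-PPARa for miR-126-3p and miR-451 and of NTGa for miR-126-5p. Of the 3 microRNAs, 0 were called at an adjusted p under 0.05 by limma, a linear model over all microRNAs, in any of 4 comparisons, and 0 had an unadjusted p under 0.05. Without NTGb replicate 2, miR-126-3p had an unadjusted p under 0.05 in MCK-PPARb and in the difference of effects. The same held between the control groups, NTGa minus NTGb (-0.41, limma adjusted p = 0.226). None of these passed the adjustment, and the share of all microRNAs at that p was not counted in this setting. Among all 268 tested microRNAs, 6 (2.24%) were called in MCK-PPARa against NTGa and 0 (0%) in MCK-PPARb against NTGb. Unadjusted p under 0.05 was found for 44 (16.4%) and 23 (8.58%). In the difference of the transgene effects 3 (1.12%) were called, with 28 (10.4%) unadjusted, and in NTGa against NTGb 5 (1.87%), with 42 (15.7%) unadjusted. The 95% intervals leave room for a 2-fold rise of miR-451 in either line and a larger fall of miR-126-5p, so these values do not show that levels were alike.

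miR-126-3p, the endothelial strand, had Ct values of 19.5, 19.3 and 19.6 in the NTGa animals and 19.3, 19.4 and 19.3 in MCK-PPARa. In the other line the Ct was 19.7, 19.9 and 19.6 in NTGb and 19.9, 19.8 and 19.7 in MCK-PPARb. The whole range was 0.659 cycles. The 4 wells of U6, a small nuclear RNA of like Ct, differed by 0.0721 to 0.343 cycles within an animal. The transgenic animals overlapped with their littermates in Ct in both lines.

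On the relative scale miR-126-3p was 8.32, 8.40 and 8.32 in NTGa (mean 8.35 ± 0.0438 SD, n = 3). It was 8.71, 8.57 and 8.58 in MCK-PPARa (mean 8.62 ± 0.0751), so every MCK-PPARa animal was above every NTGa animal. Such a gap in the higher direction was found for 40 of 268 tested microRNAs (14.9%), so 1 member with it is near the background. The log2 difference was 0.27 (SE 0.29, 95% interval -0.36 to 0.91, limma adjusted p = 0.737) and did not pass. With U6 as reference it was 0.09. MCK-PPARb animals were at 8.25, 8.17 and 8.43, within the range of the NTGb animals at 8.70, 7.64 and 8.82. That difference was -0.10 (95% interval -0.73 to 0.54, limma adjusted p = 0.909), and it was -0.47 without NTGb replicate 2 (limma adjusted p = 0.405) and 0.21 with U6 as reference.

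**Figure D1:**
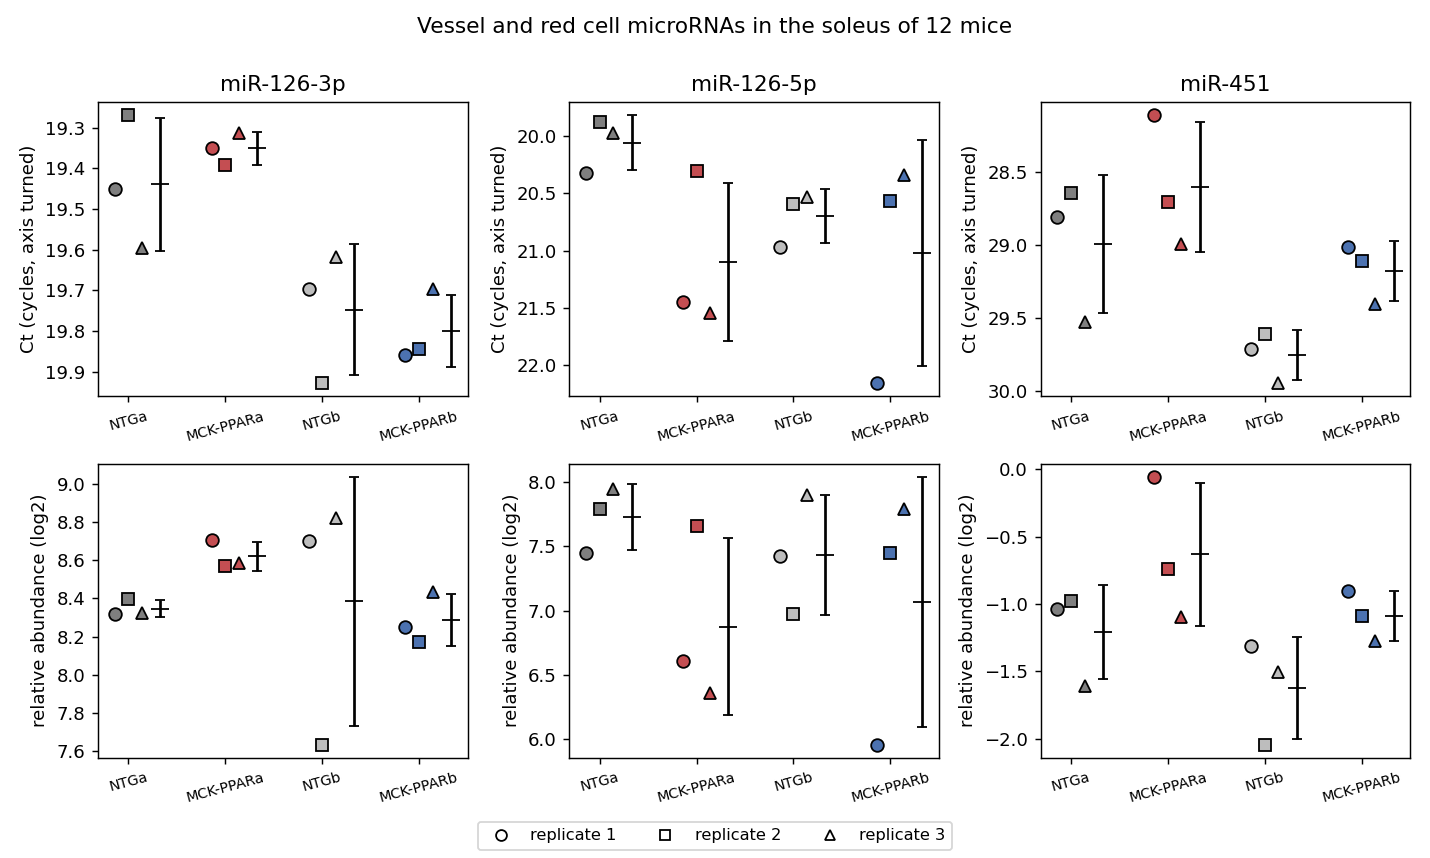
Ct (upper row, axis turned so that more template is higher) and relative abundance on the log2 scale (lower row) of each of the 3 microRNAs by group. Points are animals, with the shape giving the replicate number, and the bars give the mean and SD of 3 animals; miR-126-3p spans 0.659 cycles in all, while miR-126-5p spans 2.28 and miR-451 1.83.

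By Ct, miR-126-3p separated the lines. All 6 animals of the PPARα line had a lower Ct, from 19.27 to 19.60, than all 6 of the PPARβ line, from 19.62 to 19.93. Of the 149 microRNAs of card A detected in every animal, 9 (6.04%) separated the lines in that direction by Ct and 2 in the other. Against U6 the separation remained, with 0.33 to 0.55 in the PPARα line and -0.46 to 0.22 in the PPARβ line, where 5 of the 149 (3.36%) separated the lines in this direction. On the relative scale it did not, with 8.32 to 8.71 against 7.64 to 8.82, and 3 of the 149 (2.01%) did. This pattern was noticed in the values and is given without a test.

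miR-126-5p, the other strand of the same hairpin, varied far more. Its relative abundance was 7.44, 7.79 and 7.94 in NTGa and 6.61, 7.65 and 6.35 in MCK-PPARa. In the PPARβ line it was 7.42, 6.97 and 7.90 in NTGb and 5.96, 7.45 and 7.79 in MCK-PPARb. The lowest values belonged to 3 transgenic animals, MCK-PPARb replicate 1 and MCK-PPARa replicates 3 and 1, while the other transgenic animals lay within the range of the controls. The groups overlapped in both lines.

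Within groups, the residual SD of miR-126-5p was 0.65 (log2). For 37 tested microRNAs with a mean Ct under 25 the median was 0.26, and miR-126-5p ranked 2, after miR-466d-3p at 0.67. miR-126-3p, at 0.34, ranked 9 in that set. The log2 difference of miR-126-5p was -0.85 in MCK-PPARa against NTGa (SE 0.49, 95% interval -1.94 to 0.23, limma adjusted p = 0.443). It was -0.37 in MCK-PPARb against NTGb (95% interval -1.45 to 0.72, limma adjusted p = 0.872). Neither passed. Leaving out 1 animal moved the first to between -1.25 and -0.60. The second was 0.20 without MCK-PPARb replicate 1 and -0.60 without NTGb replicate 2.

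miR-451, the red cell microRNA, was at -1.03, -0.98 and -1.61 in NTGa and at -0.06, -0.74 and -1.09 in MCK-PPARa on the relative scale. In NTGb it was at -1.31, -2.04 and -1.51, and in MCK-PPARb at -0.90, -1.09 and -1.27. MCK-PPARa replicate 1 had the highest level of the 12 animals and NTGb replicate 2 the lowest. The transgenic mean was above the littermate mean in both lines, with overlapping animals in the PPARα line and none overlapping in the PPARβ line.

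In MCK-PPARb the Ct of miR-451 also did not overlap, at 29.0 to 29.4 against 29.6 to 29.9 in NTGb. A gap in this direction was found for 29 of 268 microRNAs on the relative scale (10.8%) and, by Ct, for 18 of the 149 on card A detected in all animals (12.1%). The log2 difference was 0.53 (1.45-fold, SE 0.31, 95% interval -0.16 to 1.23, limma adjusted p = 0.579) and did not pass. It was 0.32 without NTGb replicate 2, with an adjusted p of 0.751 by limma. It was 0.35 with the median in place of the mean Ct as reference and 0.85 with U6.

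In MCK-PPARa the log2 difference of miR-451 was 0.58 (1.49-fold, SE 0.31, 95% interval -0.12 to 1.27, limma adjusted p = 0.42), which also did not pass. It was 0.29 without MCK-PPARa replicate 1. The residual SD of miR-451, 0.38, ranked 55 of 97 microRNAs with a mean Ct between 27 and 31, whose median was 0.43. Its spread was thus near that of other microRNAs of like signal.

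The effect of MCK-PPARa minus that of MCK-PPARb was 0.37 for miR-126-3p (95% interval -0.53 to 1.27, limma adjusted p = 0.79), -0.49 for miR-126-5p (-2.02 to 1.05, 0.891) and 0.04 for miR-451 (-0.94 to 1.02, 0.982). None of these passed. Without NTGb replicate 2 they were 0.75 (limma adjusted p = 0.225), -0.26 and 0.25, and with 1 animal left out at a time the first ran from 0.17 to 0.75. Between the control groups, NTGa minus NTGb was -0.04 for miR-126-3p (-0.67 to 0.60), 0.29 for miR-126-5p (-0.79 to 1.38) and 0.41 for miR-451 (-0.28 to 1.11). Without NTGb replicate 2 these were -0.41, 0.06 and 0.20. For miR-451 the adjusted p was 0.558 by limma in this comparison. With U6 as reference it was 0.97 higher in NTGa (limma adjusted p = 0.0495), a setting in which 29 microRNAs were called between the control groups. By Ct, all 3 microRNAs were brighter in every NTGa animal than in every NTGb animal, as were 36 of the 149 microRNAs of card A detected in all animals (24.2%).

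**Figure D2:**
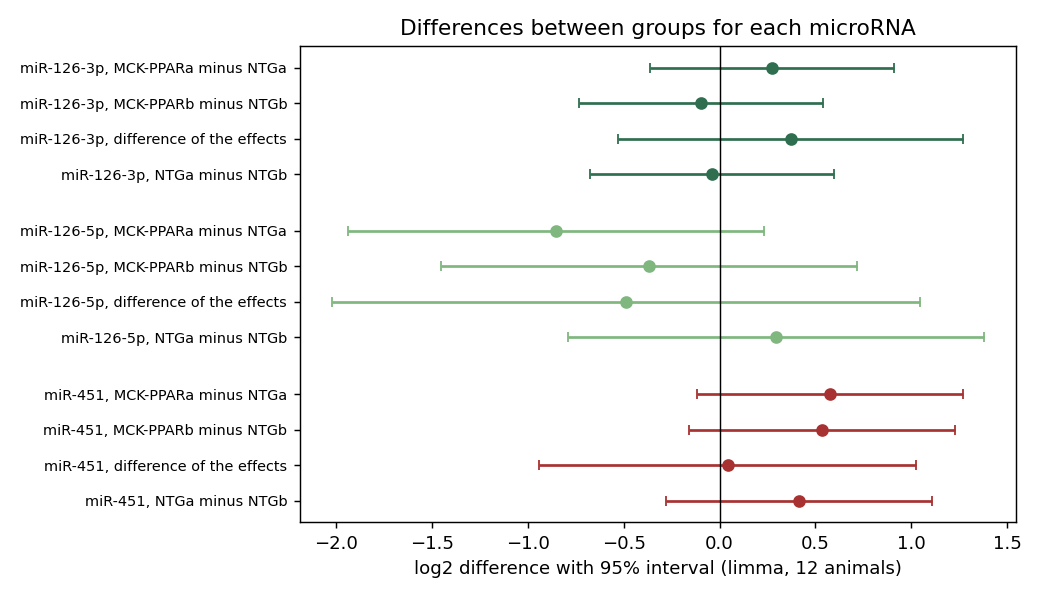
Log2 difference in relative abundance with its 95% interval from limma over 12 animals (horizontal axis) for each microRNA and comparison. Every interval includes 0, and those of miR-126-5p are the widest of the 3.

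In order of mean relative abundance, miR-126-3p stood at 8.62 in MCK-PPARa, 8.38 in NTGb, 8.35 in NTGa and 8.29 in MCK-PPARb. The order for miR-126-5p was 7.73 in NTGa, 7.43 in NTGb, 7.07 in MCK-PPARb and 6.87 in MCK-PPARa. For miR-451 it was -0.63 in MCK-PPARa, -1.09 in MCK-PPARb, -1.21 in NTGa and -1.62 in NTGb. Each group overlapped with its neighbour in the order. Groups farther apart did not always overlap: MCK-PPARa was wholly above NTGa and MCK-PPARb for miR-126-3p, and both transgenic groups were wholly above NTGb for miR-451. Such a gap was found for 14.9% of all tested microRNAs in MCK-PPARa against NTGa and for 10.8% in MCK-PPARb against NTGb. For MCK-PPARa against MCK-PPARb or NTGb, pairs noticed in the values, the share over all microRNAs was not counted. The highest group for miR-126-3p was the lowest for miR-126-5p.

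Since both arms of miR-126 come from 1 hairpin and 1 card, their difference within an animal is free of the scaling. miR-126-3p minus miR-126-5p was 0.88, 0.61 and 0.38 in NTGa and 2.10, 0.92 and 2.23 in MCK-PPARa, a difference of means of 1.13. These groups did not overlap, with an exact permutation p of 0.1 (two-sided, n = 3), the smallest that 3 against 3 can give. How many other pairs of assays had such a gap was not counted. miR-451 minus miR-126-5p did not overlap between these groups either, with a difference of means of 1.43. It uses the same miR-126-5p values, so it is not a separate observation, and its share over other pairs was not counted either. MCK-PPARa replicate 2 was only just above NTGa replicate 1.

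In the PPARβ line the arm difference was 1.27, 0.66 and 0.92 in NTGb and 2.30, 0.72 and 0.64 in MCK-PPARb. The difference of means was 0.27 (exact permutation p = 0.9), and it was -0.27 without MCK-PPARb replicate 1 and 0.13 without NTGb replicate 2. Over all animals, 3 lay between 2.10 and 2.30 and the other 9 between 0.38 and 1.27. This gap was noticed in the values and was not tested. NTGa minus NTGb was -0.33 (exact permutation p = 0.2).

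The level of miR-451 against miR-126-3p in the same animal compares red cell with endothelial signal, again without scaling. It was -9.35, -9.38 and -9.93 in NTGa and -8.76, -9.31 and -9.68 in MCK-PPARa, with overlap and a difference of means of 0.30 (exact permutation p = 0.4). In NTGb it was -10.0, -9.68 and -10.3, and in MCK-PPARb -9.15, -9.26 and -9.71. That difference of means was 0.63 (exact permutation p = 0.2), and 2 of 3 MCK-PPARb animals were above every NTGb animal. It was 0.80 without NTGb replicate 2. NTGa minus NTGb was 0.45 (exact permutation p = 0.2). Over these 6 comparisons of within-animal differences the Benjamini-Hochberg adjusted p ran from 0.3 to 0.9. A planned ratio of miR-451 to miR-23a, used in plasma as a sign of red cell lysis, was not computed because miR-23a was detected in only 7 of 12 animals.

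**Figure D3:**
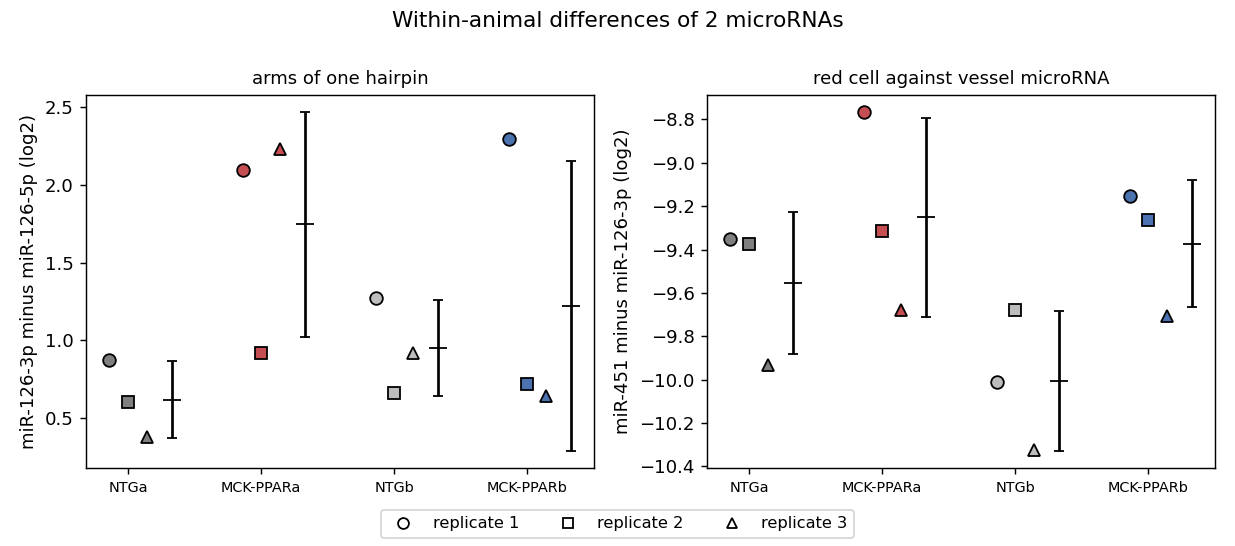
Within-animal difference on the log2 scale of the miR-126 arms (left) and of miR-451 and miR-126-3p (right) by group; points are animals and bars the mean and SD of 3. In the left panel 3 transgenic animals lie between 2.10 and 2.30 and the other 9 animals at or below 1.27.

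Across the 12 animals no clear correlation of the endothelial arms was found, with a Pearson r of 0.15 (permutation p = 0.642) and a Spearman rho of 0.13 (permutation p = 0.684). Their r was 0.35 on deviations from the group means and 0.31 with U6 as reference. Without NTGb replicates 2 and 3, the animals farthest from the median of miR-126-3p, r was -0.12. miR-451 and miR-126-3p had r = 0.51 (permutation p = 0.095) and rho = 0.13 (permutation p = 0.685). Without MCK-PPARa replicate 1 and NTGb replicate 2, the animals farthest from the median of miR-451, r was -0.29, so the positive r rests on them. miR-451 and miR-126-5p had r = -0.33 (permutation p = 0.291) and rho = -0.36 (permutation p = 0.245), and r was -0.44 without the same animals. The wide gap between 3 animals and the rest in the arm difference is not seen in miR-126-5p alone, and its r is given for completeness. None of the 3 pairs passed, with adjusted p from 0.285 to 0.642 for r and 0.685 for rho.

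The correlation of miR-451 with miR-126-3p depended on the scaling. It was 0.61 on Ct without scaling (permutation p = 0.0331, rho 0.66) and 0.70 with U6 as reference (permutation p = 0.011, rho 0.72). In these settings both assays of an animal carry its RNA input or its U6 value, and the part of this in r was not tested. In the same settings miR-126-3p with miR-126-5p had r of 0.16 and 0.31. For miR-451 with miR-126-5p it was -0.20 and -0.05. On deviations from the group means the r of miR-451 with miR-126-3p was 0.51.

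The assays most like each member were taken from 205 others detected in all 12 animals, by Pearson r over the 12 animals. These r share the reference and are descriptions. For miR-126-3p they were miR-186 (0.88), miR-155 (0.83), miR-30b (0.82), miR-30e* (0.82) and miR-150 (0.79). miR-155 and miR-150 are best known from lymphocytes. Without NTGb replicate 2 the r of miR-30b was 0.44 and that of miR-155 was 0.84. For miR-451 they were miR-467b* (0.80), let-7g (0.76), miR-678 (0.75), miR-378* (0.75) and miR-30a (0.74). None of the microRNAs nearest to miR-451 is one of the listed red cell microRNAs.

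The neighbours of miR-126-5p, sought after its values were seen, were a different set. They were rno-miR-1 (0.94), miR-19a (0.93), rno-miR-190b (0.87), miR-30e (0.87) and rno-miR-196c (0.82), where rno marks an assay designed for the rat sequence. The same 3 animals that were lowest in miR-126-5p were the lowest 3 for 6 of the 205 assays (2.93%), namely rno-miR-1, miR-19a, miR-20b, miR-181c, rno-miR-196c and rno-miR-190b. miR-19a was at 1.32 and 1.54 in MCK-PPARa replicates 1 and 3 and at 0.25 in MCK-PPARb replicate 1, and between 2.20 and 3.35 in the other animals.

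The mouse assays of the same microRNA names ordered the animals differently. The r with miR-126-5p was 0.27 for the mouse assay of miR-1 and 0.33 for that of miR-190b, against 0.94 and 0.87 for the rat ones. MCK-PPARa replicate 1, for example, was among the lowest 3 for rno-miR-1, at 8.08 in a range of 7.86 to 8.81. The mouse assay gave 7.26 for it in a range of 6.50 to 7.34. MCK-PPARb replicate 1 was among the lowest 3 in both, at 7.86 for rno-miR-1 and 7.04 for the mouse assay. The mouse assay of miR-190b was lowest in the 3 MCK-PPARa animals. The part of these assays in the values of miR-126-5p was not tested.

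**Figure D4:**
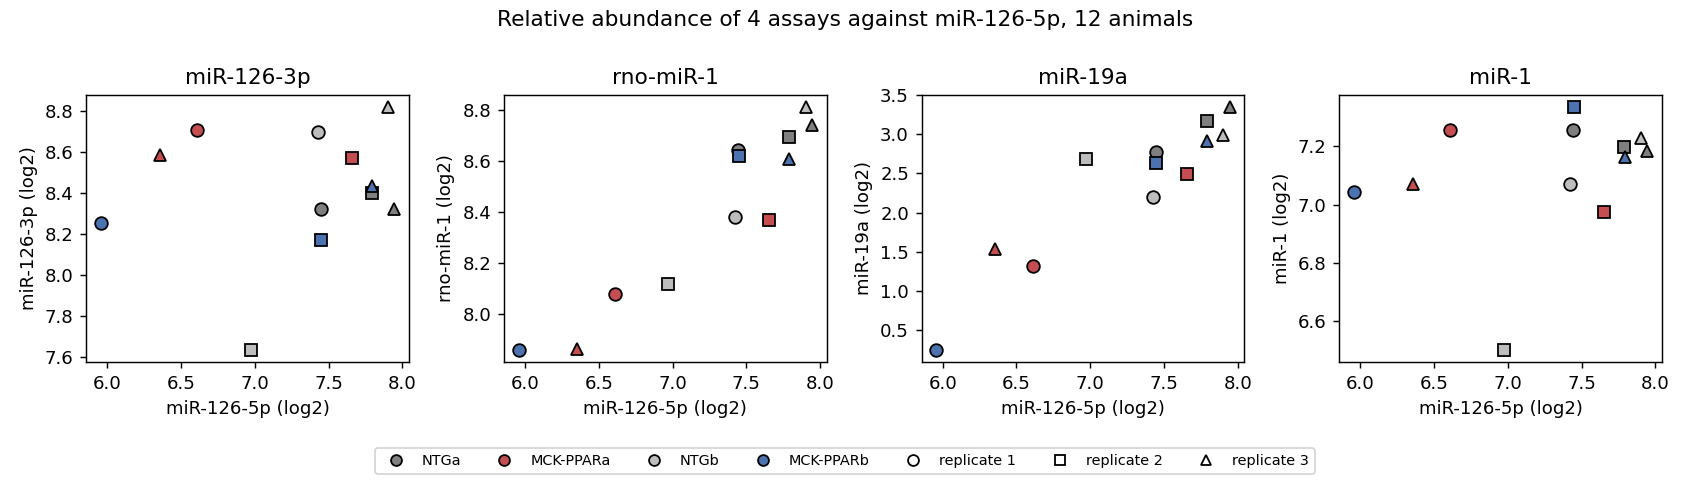
Relative abundance (log2) of miR-126-3p, rno-miR-1, miR-19a and the mouse assay of miR-1 against that of miR-126-5p, with 12 animals as points coloured by group. rno-miR-1 and miR-19a lie along miR-126-5p (r = 0.94 and 0.93), while miR-126-3p and the mouse miR-1 assay do not (r = 0.15 and 0.27).

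Other microRNAs tied to vessel growth were read as a list of 23, of which 21 were tested. They include miR-221 and miR-222, miR-210 of the hypoxia response, and the miR-23, miR-27, miR-24 and miR-17-92 clusters. By limma 0 were called in MCK-PPARa. At an unadjusted p under 0.05, 2 were higher and 0 lower there, beside 16.4% of all microRNAs. There 13 of 21 values were positive, and the median was 0.17, where all 268 microRNAs had a median of 0.12 and 58.6% positive. The values of lowest p were miR-221 at 2.22 (limma adjusted p = 0.217), with 2 animals at the detection floor, miR-322 at 1.00, miR-19a at -1.31 and miR-27a at 0.29. With U6 as reference or without scaling, 9 of 21 were positive and the median was -0.02 or -0.01.

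In MCK-PPARb the vessel growth list again had 0 called by limma. At the unadjusted p 1 was higher and 0 lower, beside 8.58% of all microRNAs. In the list 15 of 21 values were positive with a median of 0.36, where all microRNAs had 0.02 and 51.1% positive. miR-23b was at 0.63 (limma adjusted p = 0.49). miR-27a and miR-27b followed at 0.41 and 0.40, and miR-24 was at 0.43. The median of the list was 0.22 without NTGb replicate 2. With the median Ct as reference it was 0.17 with 12 of 21 positive, beside -0.05 and 44.4% over all. With U6 it was 0.62 with 17 of 21 positive, beside 0.33 and 77.2% over all. With the small control RNAs of the card it was 0.46 with 17 of 21 positive, beside 0.05 and 56.0%. Without scaling it was 0.40 with 15 of 21 positive, beside 0.15 and 59.3%. miR-143 and miR-145, enriched in the smooth muscle of vessel walls, were at 0.07 and 0.08 in MCK-PPARa. In MCK-PPARb they were at 0.08 and 0.24. The sign of both miR-143 and miR-145 turned in MCK-PPARa with U6 or the small control RNAs of the card as reference or without scaling. In MCK-PPARb they ran from -0.05 to 0.03 without NTGb replicate 2. The 4 muscle microRNAs had a median of 0.03 in MCK-PPARa and 0.12 in MCK-PPARb. The former was -0.16 with U6, and the latter was 0.47 with U6 and -0.13 without NTGb replicate 2, where 1 of 4 was positive.

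A list of 10 microRNAs abundant in red cells and erythroblasts, none of them exclusive to these cells and 2 of them (miR-92a and miR-210) also in the vessel growth list, gave 0 calls by limma in either line. At the unadjusted p, 2 were higher in MCK-PPARa and 1 in MCK-PPARb, and 0 were lower in either, beside the 16.4% and 8.58% of all microRNAs at that p. Without NTGb replicate 2, 1 was higher and 1 lower in MCK-PPARb. In that setting 1 of 10 was called by limma in the difference of effects, with a higher value (limma adjusted p = 0.0495). There 6 of all tested microRNAs were called, and 9 of 10 values of the list were positive, beside 53.5% over all. With all 12 animals 0 of 10 were called in that comparison. In MCK-PPARa 8 of 10 were positive with a median of 0.53, beside 58.6% and 0.12 over all microRNAs (7 of 10 with U6, the small control RNAs or no scaling). Those of lowest p were miR-185 at 1.34 (limma adjusted p = 0.134), miR-486 at 0.68 (0.206), miR-25 at 0.86 and miR-106b at 0.38. The 2 negative values included miR-16 at -0.36. The summed level of the 10, on the log2 scale, had means of 7.07 in MCK-PPARa and 7.15 in NTGa. In the other line these were 6.94 in MCK-PPARb and 7.39 in NTGb, and animals overlapped in both lines. In MCK-PPARb 3 of 10 were positive with a median of -0.12, beside 51.1% and 0.02 over all. The median was -0.10 without NTGb replicate 2 and turned to 0.19 with U6, where the median of all microRNAs was 0.33. miR-185 stood at 1.28, miR-16 at -0.61, miR-486 at -0.28 and miR-25 at -0.47. miR-486 is also a muscle microRNA encoded in Ank1. Set against miR-486 within each animal, a comparison added after the values were seen, miR-451 was -4.51, -4.74 and -5.28 in MCK-PPARb and -5.71, -5.63 and -5.64 in NTGb, without overlap (exact permutation p = 0.1, n = 3, the smallest possible). Of 148 microRNAs of card A set against miR-486, 26 (17.6%) showed such a gap. The means in the PPARα line were -5.33 in MCK-PPARa and -5.22 in NTGa. The difference of miR-451 in relative abundance was positive in both lines under each reference of that scale and without scaling. Set against miR-486 it was -0.11 in MCK-PPARa minus NTGa.

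MicroRNAs of white cells and platelets, the other blood cells a muscle can hold, made a list of 8 with 6 tested. Their median was 0.30 in MCK-PPARa, with 5 of 6 positive, beside 0.12 and 58.6% over all microRNAs. There miR-142-3p was at 0.62 (limma adjusted p = 0.431) and miR-223 at 0.35. In MCK-PPARb the median was -0.25, with 1 of 6 positive, beside 0.02 and 51.1% over all, and miR-342-3p was at -0.63 (limma adjusted p = 0.559). By limma 0 of 6 were called in either line, and 0 had an unadjusted p under 0.05, beside 16.4% and 8.58% of all microRNAs. With U6 the MCK-PPARb median was 0.06 with 4 of 6 positive, where all microRNAs had 0.33 and 77.2%. With the median Ct as reference it was -0.44 with 0 of 6 positive, where all had -0.05 and 44.4%, and without NTGb replicate 2 it was -0.48 with 2 of 6 positive. In each of the latter settings 1 of 6 was lower at the unadjusted p. The summed level of the 6 ran from 5.09 to 5.43 in NTGa, 5.19 to 5.50 in MCK-PPARa, 4.99 to 5.68 in NTGb and 4.83 to 5.15 in MCK-PPARb, on the log2 scale. Their part in the values of miR-451 was not tested.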

How the data were processed

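Soleus RNA was run as TaqMan real-time PCR for 40 cycles, per the labels' protocols. The authors deposited a raw Ct for each well, with blanks where none was found, per the file headers and values. Analysis software, threshold and baseline were not stated in the labels. Both cards of an animal were 1 replicate, and if replicates are not separate animals, p-values measure technical spread only. Repeat wells were averaged, a blank among them taken as Ct 40, and a Ct under 35 counted as detected. Relative abundance was each card's mean Ct over microRNAs detected in every animal (149 on A, 59 on B) minus the Ct, with a floor of -6.56 (A) or -5.66 (B) for undetected values. An assay was tested where 1 or more groups had it detected in each of their 3 animals (268). Group means were fitted with limma 3.58.1 in R 4.3.3 over 12 animals (8 residual degrees of freedom), giving two-sided p-values adjusted by Benjamini-Hochberg over 268; the script was tested on simulated data. Each member is 1 well per animal, so the 12 animals limit the precision. Correlations used 100000 permutations. Named microRNAs were the members, the 5 assays of highest r with miR-126-3p and with miR-451, and up to 4 of lowest p per list; others were named after their values were seen. Members and lists were chosen with earlier results of these data known. Alternatives covered reference, detection limit, filter, weights, block and left-out animals; the set against miR-486 was added after seeing the data.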

Additional observations from a re-analysis of the deposited data

How the results depend on the processing

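The 3 microRNAs gave 12 differences, which were computed under 27 alternatives where each applied, 309 values in all. Of these 287 kept the direction and the side of the threshold, 21 turned sign and 1 passed the threshold, miR-451 in NTGa against NTGb with U6 as reference (0.97). Among these alternatives, no reference, limit or left-out animal turned the sign of miR-126-3p (0.09 to 0.39), miR-126-5p (-1.25 to -0.56) or miR-451 (0.29 to 0.99) in MCK-PPARa, or of miR-451 in MCK-PPARb (0.12 to 0.85). The cause was not tested for any change below.

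miR-126-3p in MCK-PPARb was 0.00215 with the small control RNAs of the card (endogenous controls) and 0.21 with U6, and -0.47 to 0.10 with 1 animal left out. Its difference of effects was -0.13 with U6. In NTGa against NTGb it was 0.094 with the endogenous controls, 0.51 with U6, 0.31 without scaling, 0.054 with no detection limit, and -0.41 to 0.16 with 1 animal left out. miR-126-5p in MCK-PPARb ran from -0.73 to 0.20, and its arm difference there from -0.27 to 0.56, with 1 animal left out. The difference of effects of miR-451 was -0.14 with the endogenous controls, -0.46 with U6, -0.19 without scaling, -0.058 with no detection limit, and -0.25 to 0.27 with 1 animal left out. The r of miR-126-3p with miR-126-5p was -0.12, and that of miR-451 with miR-126-3p -0.29, without the 2 farthest animals; the latter was 0.70 with U6 and 0.61 without scaling.

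Counts of called microRNAs moved more. In MCK-PPARa it was 3 with undetected values missing and 4 to 12 with 1 animal left out, where the 12 came without MCK-PPARb replicate 1. In MCK-PPARb it was 1 with animal weights and 0 to 1 with 1 animal left out. For the difference of effects it was 1 with the median reference, 7 with U6 and 2 to 6 with 1 animal left out. For NTGa against NTGb it was 29 with U6, 14 with animal weights, 1 with no detection limit, with no filter or with the 2 groups alone, 0 with undetected values missing, with detection in all 12 animals or with Ct 32 as the limit, and 0 to 7 with 1 animal left out. The median of all 268 microRNAs moved from 0.02 to 0.33 with U6 and to 0.15 without scaling in MCK-PPARb, and from 0.12 to -0.00292 without scaling in MCK-PPARa.

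With the replicate number as a block, the limma adjusted p of miR-451 was 0.329 in MCK-PPARa and 0.559 in MCK-PPARb, and no call of the 3 microRNAs changed. The labels do not say that the numbers pair the animals. Over 208 microRNAs the r of deviations of same-numbered animals ran from -0.25 to 0.37, with a median of -0.01 and 5 of 18 pairs above 0.1. The median between other numbers was 0.0096, and 7 of 12 animals correlated best with their own number. The ratio with miR-23a was not run.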
